A study of Mus musculus with 5 samples.

Results

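The genes described here are Nr4a1, Nr4a2, Nr4a3, Egr1, Egr2 and Egr3, transcription factor genes that T cells switch on soon after their antigen receptor is engaged. They were chosen by name, with earlier results of these data known. All 6 were found among the 24084 genes of the count table and passed the filter on low counts with 11437 genes in all. Messenger RNA was sequenced from sorted regulatory T cells (Tregs, CD4 T cells that express Foxp3 and dampen immunity) of mice 13 days old of the Foxp3-DTR/GFP strain. Its modified Foxp3 locus directs a receptor for diphtheria toxin and a green fluorescent reporter to Tregs. The Tregs came from skin (2 libraries) or skin-draining lymph nodes (3 libraries). Both groups carried the same reporter allele and received no stated treatment. The sort markers, the number of animals behind a library and the way the tissue was digested are not known from the labels. No label says that libraries of a group came from separate animals, so the p-values reflect only library-to-library spread, part of which may be technical.

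As background, the 3 Nr4a proteins (Nur77, Nurr1 and Nor1) are orphan nuclear receptors that are active without a known ligand, so their activity follows their transcription. In T cells they are induced by calcium and kinase signals, they help to set and keep the Treg program by acting on the Foxp3 locus, and a Nr4a1 reporter is widely used to read antigen receptor signal strength. The Egr proteins are zinc finger factors induced through the Ras-ERK pathway and the serum response factor; Egr2 and Egr3 are also targets of NFAT and restrain T cell activation, and the Nab proteins are their co-repressors. Both families are commonly used as readouts of receptor signalling.

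In these libraries 1 member of each family changed, in opposite directions. The mean level of Nr4a1 was 4.98-fold higher and that of Egr1 15.9-fold lower in skin than in lymph node Tregs, and both passed the test. The other members leaned the same way as their family, Nr4a2 and Nr4a3 with higher means in skin and Egr2 and Egr3 with lower ones, but none of these 4 passed an adjusted p of 0.05.

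The promoters are shown first because they hold letters that known inducers of these genes bind. Each line gives the 250 bases before the annotated start, 5′ to 3′ on the gene's strand, from RefSeq on GRCm38.p6, the assembly of mm10. Capitals mark the short core of the cAMP response element, TGACG, or its reverse complement CGTCA, to which factors such as CREB and CREM bind.
Nr4a1: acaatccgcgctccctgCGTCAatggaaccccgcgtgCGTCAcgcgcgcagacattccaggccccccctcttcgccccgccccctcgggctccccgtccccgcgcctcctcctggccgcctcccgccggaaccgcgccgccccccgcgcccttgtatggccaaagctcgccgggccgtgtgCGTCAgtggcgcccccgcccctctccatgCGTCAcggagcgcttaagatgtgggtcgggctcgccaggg
Nr4a2: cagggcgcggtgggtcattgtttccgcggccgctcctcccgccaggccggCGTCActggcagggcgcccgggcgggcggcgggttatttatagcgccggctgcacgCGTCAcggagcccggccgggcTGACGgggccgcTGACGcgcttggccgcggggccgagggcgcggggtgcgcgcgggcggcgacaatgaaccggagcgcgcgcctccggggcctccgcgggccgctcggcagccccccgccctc
Nr4a3: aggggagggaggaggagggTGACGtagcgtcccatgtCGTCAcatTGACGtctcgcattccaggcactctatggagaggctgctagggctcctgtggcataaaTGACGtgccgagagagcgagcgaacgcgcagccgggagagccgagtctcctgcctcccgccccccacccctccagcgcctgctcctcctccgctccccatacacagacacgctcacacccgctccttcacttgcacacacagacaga
Egr2: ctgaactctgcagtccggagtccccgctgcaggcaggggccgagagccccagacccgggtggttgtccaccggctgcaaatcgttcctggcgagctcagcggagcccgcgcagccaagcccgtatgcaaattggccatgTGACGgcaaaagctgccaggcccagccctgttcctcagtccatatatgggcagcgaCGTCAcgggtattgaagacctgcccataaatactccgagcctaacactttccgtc
The windows lie at chr15:101266596-101266845 on the plus strand for Nr4a1, chr2:57124004-57124253 on the minus strand for Nr4a2, chr4:48045055-48045304 on the plus strand for Nr4a3 and chr10:67537619-67537868 on the plus strand for Egr2. Promoter windows for Egr1 and Egr3 are not shown. For Egr2, which has 5 windows in the RefSeq table, the first whose start matches a GENCODE coding transcript is printed.

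All 3 Nr4a windows held 4 such cores, none overlapping another, and the Egr2 window held 2. Among 32851 promoter windows of the same length, 17.8% held at least 1 core on either strand, 3.90% at least 2 and 0.137% at least 4. Counted in bases from the start, the Nr4a1 cores began at -233, -213, -69 and -40, those of Nr4a2 at -200, -144, -123 and -111, and those of Nr4a3 at -231, -213, -205 and -147. The full palindrome TGACGTCA was found in none of the 4 windows (1.55% of all). The CArG box, the site of the serum response factor, was searched only as exact matches to CCWWWWWWGG, with W for A or T. Such a match was found in the Egr2 window, beginning at -72, and in no Nr4a window (1.47% of all). Sites with a mismatch were not searched. An Egr site, GCGNGGGCG on either strand, had 1 match in the Nr4a1 window and 1 in the Nr4a2 window (4.70% of all), and the Nr4a site AAAGGTCA on either strand in none of the 4 (1.34% of all). These matches describe letters in the windows and say nothing of occupancy.

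Counts assigned to genes ranged from 10468795 to 10787378 in the skin libraries and from 12305644 to 14595018 in the lymph node libraries, and 9192 to 9894 genes had a count in skin Tregs against 12173 to 12540 in lymph node Tregs. Against the labelled cell type, 7 of 7 Treg and T cell markers had counts in every library, with summed levels of 6986 to 7041 CPM (counts per 1000000 gene counts, after TMM scaling) in skin and 6644 to 7266 CPM in lymph node libraries. Ctla4, which rose in skin, carries much of the skin sum: the other 6 summed to 4459.5 and 4788 CPM in skin against 6312, 5967 and 6621 CPM in lymph node, and Cd3e, Cd3d and Cd4 had skin values below every lymph node value without passing the test. Foxp3 averaged 97.8 ± 28.1 CPM in skin and 94.8 ± 5.09 CPM in lymph node Tregs (SD, n = 2 and n = 3), Il2ra 1204 ± 139 CPM in skin and 1303 ± 136 CPM in lymph node, and Cd3e 1146 ± 123 CPM in skin and 2032 ± 246 CPM in lymph node. These 3 did not pass the test. Myeloid markers were also present in the skin libraries: 14 of 17 were tested and 6 passed, all higher, and the 17 together summed to 1922 to 2537 CPM in skin against 15.8 to 30.8 CPM in lymph node libraries, where Fcgr1, Cd163, Cd14 and Sirpa were at 0. Dendritic cell markers summed to 6121 to 8075 CPM in skin against 227 to 611 CPM in lymph node, with Cd207 and Clec9a at 0 in both. Most of the skin sum was Cd74 (3672 and 5688 CPM), H2-Aa (1220 and 1228 CPM) and H2-Ab1 (1044 and 860 CPM). The rest was far lower in skin libraries 1 and 2: Cd209a at 100 and 153 CPM, Epcam at 29.4 and 82.9 CPM. Xcr1 was at 51.0 and 10.7 CPM there, Flt3 at 3.84 and 52.5 CPM and Zbtb46 at 0.0936 and 0 CPM. Keratinocyte markers summed to 105 to 117 CPM in skin against 4.86 to 13.1 CPM in lymph node. Most of the skin sum was Krt14 (68.9 and 109.5 CPM), with Krt15 at 30.0 and 0 CPM. Of the 5 keratinocyte markers tested, 1 passed as higher and 3 leaned lower in skin, with a median log2 fold change of -0.27. B cell markers summed to 22.1 to 72.3 CPM in skin, with Cd79a, Ms4a1, Pax5 and Cr2 at 0, against 79.3 to 217 CPM in lymph node. Of the NK and CD8 T cell markers, Cd8a fell, at 0 in both skin libraries against 7.23, 12.2 and 22.9 CPM in lymph node (edgeR adjusted p = 0.0491). The 6 together summed to 22.2 and 101 CPM in skin against 51.8 to 76.6 CPM in lymph node. The skin sum was Cd8b1 alone in library 1 and Prf1 alone in library 2, with the other markers of the list at 0. Mast cell markers summed to at most 12.8 CPM in skin and 24.9 CPM in lymph node, and fibroblast markers to at most 4.68 CPM in skin and 1.19 CPM in lymph node. Myeloid, dendritic, B and CD8 T cells can also express Nr4a and Egr genes, and the part of these cells in the results was not tested. In sorted bulk samples, fewer cells with a transcript and less transcript per cell cannot be told apart.

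Nr4a1 (ENSMUSG00000023034.7, chr15:101254269-101274795, plus strand) encodes Nur77, the family member most used as a receptor signal reporter. It stood at 712 and 900 CPM in the skin libraries, against 124, 183 and 179 CPM in the lymph node libraries. The lower skin value was 3.90 times the highest lymph node value, so the groups did not overlap. Its mean was 806 ± 133 CPM in skin and 162 ± 32.5 CPM in lymph node Tregs (SD, n = 2 and n = 3), a log2 fold change of 2.32 (SE 0.26, edgeR quasi-likelihood test, adjusted p = 0.0299). Of all 11437 genes tested, 2.40% passed in this direction.

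Nr4a2 (ENSMUSG00000026826.13, chr2:57106830-57124003, minus strand) encodes Nurr1. It was at 61.1 and 21.8 CPM in skin, against 2.60, 2.43 and 1.63 CPM in lymph node Tregs. The groups were apart, with the lower skin value 8.38 times the highest lymph node value, but skin library 1 stood far above skin library 2. The log2 fold change was 4.22 (SE 0.90), with an edgeR adjusted p of 0.0511 that just missed the threshold. It passed by edgeR with RLE size factors (adjusted p = 0.0498) and with a minimum count of 50 (0.0372). It also passed by DESeq2 (4.98e-07) and limma-voom (0.0353). It did not pass under the other scalings, without a low-count filter or with any 1 lymph node library left out. With the replicate block the edgeR adjusted p was 0.726.

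Nr4a3 (ENSMUSG00000028341.9, chr4:48045153-48086447, plus strand) encodes Nor1 and was the scarcest of the family. Its levels were 2.90 and 13.6 CPM in skin, against 1.26, 1.33 and 2.99 CPM in lymph node Tregs, from 17 to 136 counts per library. Skin library 1 lay inside the lymph node range, and only skin library 2 was above it. The log2 fold change of 2.14 (SE 1.10) did not pass (edgeR adjusted p = 0.269).

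Egr1 lies on chromosome 18 (ENSMUSG00000038418.7) and encodes the prototype of the family. It had 5.80 and 6.39 CPM in skin, against 117, 74.2 and 100.2 CPM in lymph node Tregs. The skin libraries were nearly equal, and the lowest lymph node value was 11.6 times the higher of them. Its mean was 6.10 ± 0.416 CPM in skin and 97.0 ± 21.3 CPM in lymph node Tregs (SD, n = 2 and n = 3), a log2 fold change of -3.99 (SE 0.56, edgeR adjusted p = 0.0405). Of all genes tested, 5.30% passed in this direction.

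Egr2 (ENSMUSG00000037868.15, chr10:67535475-67542188, plus strand) encodes a factor tied to T cell anergy and tolerance. It was at 50.4 CPM in skin library 1 and had no count in skin library 2, where a count of 0 allows up to 0.300 CPM (3 counts, counting error only), against 81.1, 120.2 and 91.2 CPM in lymph node Tregs. Egr3 (ENSMUSG00000033730.4, chr14:70077203-70082614, plus strand), which acts in part redundantly with Egr2, followed the same course. It was at 12.7 CPM in skin library 1 and without a count in skin library 2, against 34.8, 29.6 and 32.7 CPM in lymph node Tregs. For both genes every skin value was below every lymph node value, but the skin libraries lay far apart, and the log2 fold changes of -1.95 (SE 2.02) for Egr2 and -2.34 (SE 2.04) for Egr3 did not pass (edgeR adjusted p = 0.598 and 0.520). Other transcripts were likewise scarce in 1 skin library. Of 6660 genes whose lymph node mean reached 20 CPM, 304 (4.56%) were under 1 CPM in skin library 1 only, 787 (11.8%) in skin library 2 only and 282 (4.23%) in both. At 0 were 369 of them in skin library 1 and 610 in skin library 2.

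**Figure D1:**
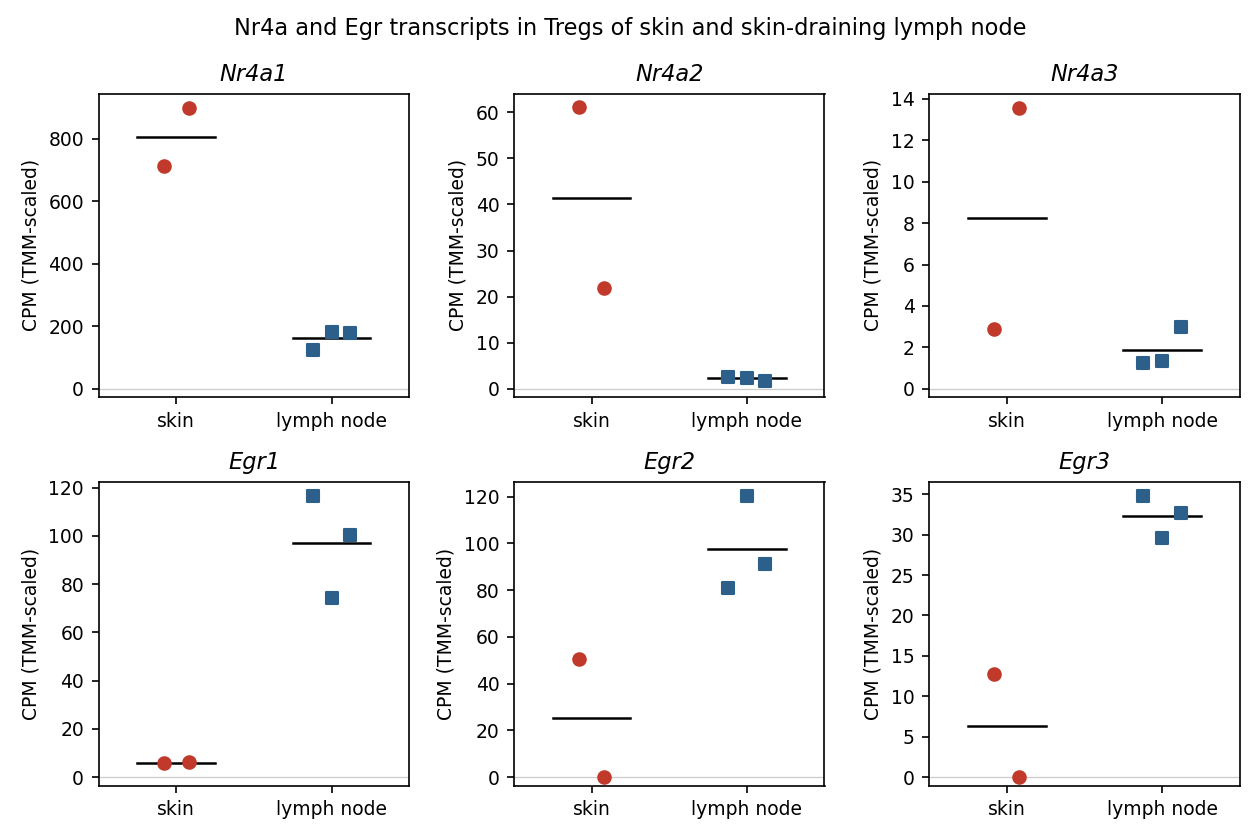
TMM-scaled CPM (linear vertical axes, a different range in each panel) of the 6 genes in 2 skin libraries (circles) and 3 lymph node libraries (squares), with horizontal lines at the group means. The Nr4a1 and Nr4a2 circles lie above all squares, the Egr1, Egr2 and Egr3 circles below them, and Nr4a3 overlaps.

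Values of 5 of the 6 members did not overlap between skin and lymph node, 2 with skin above and 3 with skin below. Over all tested genes 50.3% did not overlap, 16.8% with skin above and 33.5% with skin below. By the edgeR test 2 of 6 members passed, beside 7.70% of all genes, and the median log2 fold change of all tested genes was -0.21. These calls depended on the libraries. With any 1 lymph node library left out, edgeR called 0 of all genes (2361 to 2485 at an unadjusted p under 0.05), and the adjusted p of both Nr4a1 and Egr1 ran from 0.113 to 0.115, while their log2 fold changes stayed at 2.16 to 2.41 and at -4.14 to -3.84. Leaving out either skin library leaves a lone skin sample, assumed to vary like the lymph node group, so only fold changes are given here. The log2 fold change of Nr4a1 was 2.47 without skin library 1 and 2.13 without skin library 2. That of Egr1 was -3.93 without skin library 1 and -4.07 without skin library 2.

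**Figure D2:**
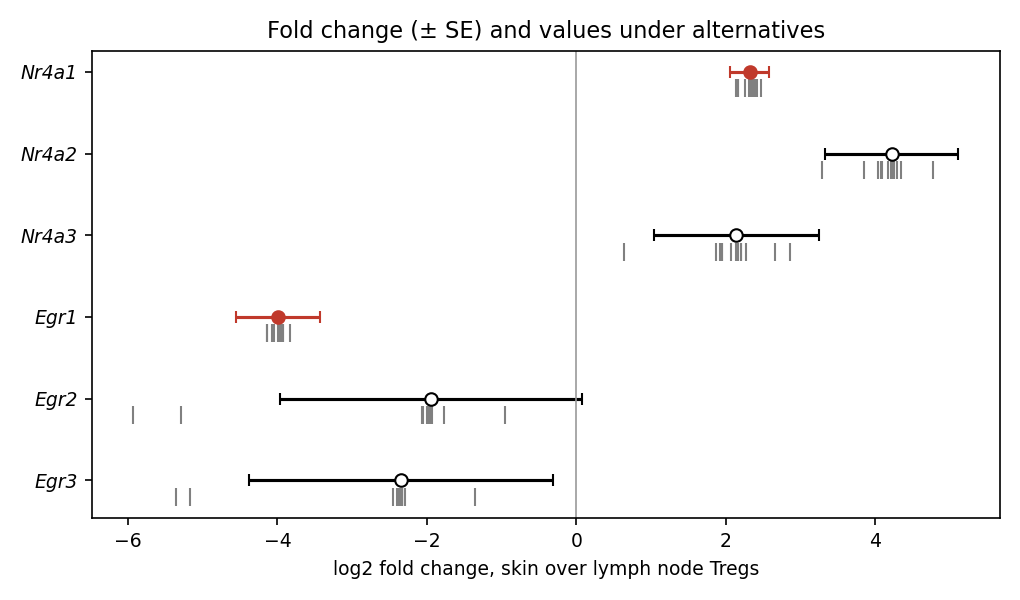
Log2 fold change of each gene, skin over lymph node Tregs (circles, bars are ± 1 SE; filled where the edgeR adjusted p was under 0.05), with ticks under each circle for the values under the alternatives. Values without skin library 1 are left out for Egr2 and Egr3, which then have no skin count. Nr4a ticks all lie to the right of 0 and Egr ticks all to the left.

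Levels of different genes were compared per kilobase of annotated exon of their coding transcripts (GENCODE M21, from 2.86 kb for Nr4a1 to 5.79 kb for Nr4a3). In skin Tregs the order of mean levels was Nr4a1 (282 ± 46.6 CPM per kb), Nr4a2 (11.1 ± 7.43), Egr2 (7.42 ± 10.5), Egr3 (1.55 ± 2.19), Nr4a3 (1.42 ± 1.30) and Egr1 (1.36 ± 0.0928). Below Nr4a1, no neighbours in this order differed beyond their spread. In lymph node Tregs it was Nr4a1 (56.7 ± 11.4 CPM per kb), Egr2 (28.7 ± 5.98), Egr1 (21.6 ± 4.76), Egr3 (7.88 ± 0.629), Nr4a2 (0.593 ± 0.138) and Nr4a3 (0.321 ± 0.169). The lymph node ranges of Egr2 (23.9 to 35.4 CPM per kb) and Egr1 (16.6 to 26.0 CPM per kb) overlapped. The last 3 places in skin rest on means closer than their spread: in skin library 1 Nr4a3 was below Egr1, and in skin library 2 Egr2 and Egr3 were at 0.

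Nr4a1 dominated its family in both tissues, whereas the make-up of the Egr family varied. Nr4a1 made up 93.7 and 97.5% of the summed Nr4a level per length in the skin libraries and 97.9 to 98.6% in the lymph node libraries. The Nr4a2 share was 6.13 and 1.80% in skin, against 0.686 to 1.56% in lymph node. In skin library 1 Egr2 made up 77.2% of the Egr level and Egr1 6.73%, while in skin library 2 every Egr count was from Egr1. In lymph node libraries 1, 2 and 3 the Egr1 share was 44.6, 28.0 and 39.1%, and the Egr2 share 40.9, 59.8 and 47.0%. Lymph node library 2 was thus lowest in Egr1 and highest in Egr2, and the summed Egr level stayed at 57.2 to 59.2 CPM per kb in all 3.

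A ratio of 2 genes within a library does not depend on how libraries are scaled. Nr4a1 over Egr1, per length, was 193 and 221 in the skin libraries, against 1.68, 3.86 and 2.80 in the lymph node libraries. The lowest skin ratio was 49.9 times the highest lymph node ratio. For the summed families the ratio was 13.8 and 227 in skin, against 0.763 to 1.11 in lymph node Tregs, where the families were at about the same level. With 2 libraries against 3, the smallest two-sided p of an exact permutation test is 0.1, and no such test was run.

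**Figure D3:**
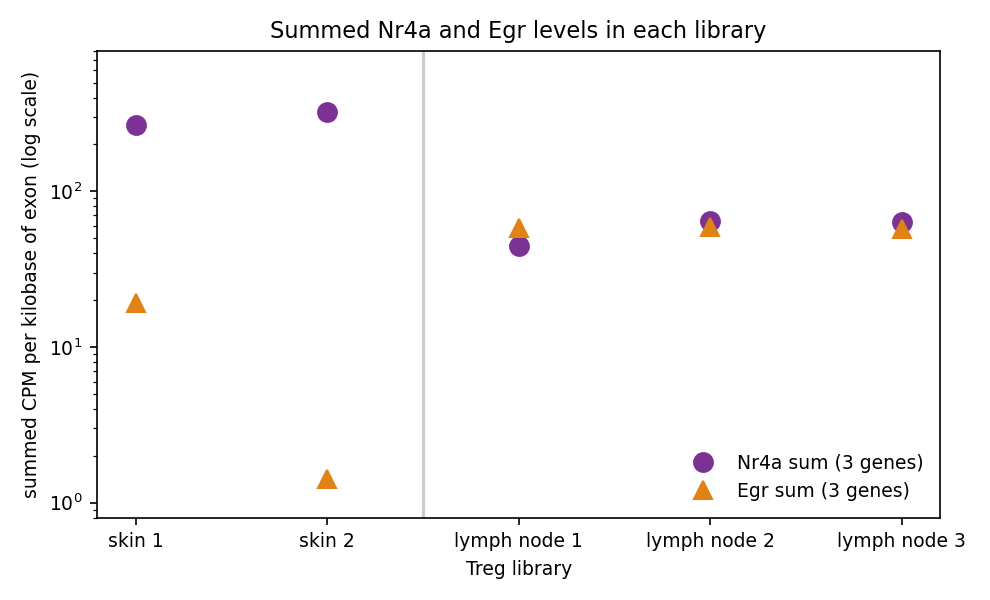
Summed level of Nr4a1, Nr4a2 and Nr4a3 (circles) and of Egr1, Egr2 and Egr3 (triangles) in each Treg library, in CPM per kilobase of exon on a log axis. Circles and triangles lie close together in the 3 lymph node libraries (44.5 to 64.8 against 57.2 to 59.2) and far apart in the 2 skin libraries (266 and 324 against 19.2 and 1.43).

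The libraries in which 1 member was high were not those in which all were. Among lymph node libraries Nr4a1 was lowest and Egr1 highest in library 1, Egr2 was highest in library 2 and Nr4a3 in library 3. Lymph node library 3 had the highest B cell, myeloid, dendritic, NK and CD8 T cell, and Treg and T cell marker sums. Between the skin libraries Nr4a2 was higher in library 1 and Nr4a1 and Nr4a3 in library 2. The myeloid marker sum was also higher in skin library 2, but Adgre1, Itgam, Mrc1, Cd14 and Sirpa were higher in skin library 1. Likeness of profiles was measured as the root-mean-square difference of log2 CPM over the 5 libraries, each gene centred on its own mean, as a description. Egr2 and Egr3 were 0.73 apart, Nr4a1 and Nr4a3 0.73, Nr4a1 and Nr4a2 1.05 and Nr4a2 and Nr4a3 1.69. Egr1 was 2.07 from Egr3 and 2.76 from Egr2, and pairs across the families were 2.91 to 4.94 apart. Of 5608 other genes averaging at least 5 on the log2 CPM scale, the nearest to Nr4a1 were Itfg3 (0.14), Spryd3 (0.15) and Atg14 (0.15). Gcnt1, an enzyme of selectin ligand synthesis (0.28), the chemokine receptor gene Ccr2 (0.29) and Fam110a (0.35) were nearest to Nr4a2, and Ube2t (0.23), Pcsk7 (0.24) and Parp10 (0.24) to Nr4a3. Wdyhv1 (0.20), Znrf1 (0.22) and Ms4a4b (0.23) were nearest to Egr1, Cul4b (0.13), the co-stimulatory receptor gene Cd226 (0.17) and Noc4l (0.18) to Egr2, and Mettl8 (0.14), Wdr55 (0.19) and Bloc1s6 (0.23) to Egr3. Cd226, for example, was at 45.6 CPM and 0 in skin, against 101, 110.3 and 87.5 CPM in lymph node Tregs. The neighbours named for Egr2 and Egr3 all had 0 to 2 counts in skin library 2, where Egr2 and Egr3 had 0. Their nearness, and that of Egr2 to Egr3, thus rests largely on that library.

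The genes around these families were counted from lists, each read beside the 2.40% of all tested genes that passed as higher and the 5.30% that passed as lower. Those shares are for the edgeR adjusted p, and the lists were chosen with earlier results of these data known. Of all 11437 genes, 3372 were at an unadjusted edgeR p under 0.05, 3262 were called by DESeq2 and 2231 by limma-voom. The unadjusted, DESeq2 and limma-voom counts of each list are to be read beside these. In the cascade from Ras to ERK, the kinase route to Egr induction, edgeR called 0 of 13 tested genes (3 at an unadjusted p under 0.05, 4 by DESeq2 and 2 by limma-voom, all higher), with a median log2 fold change of 0.31. Its most abundant members were Nras, at 518 ± 238 CPM in skin and 448 ± 43.6 CPM in lymph node Tregs, and Rps6ka1, a kinase downstream of ERK, at 474 ± 41.5 CPM in skin and 351 ± 57.4 CPM in lymph node Tregs. Of the serum response factor and its partners edgeR called 0 of 6 (1 at an unadjusted p under 0.05, and 1 each by DESeq2 and limma-voom, lower), with a median of -0.14. The most abundant, the actin-sensing co-activators Mkl1 (80.7 ± 23.8 CPM in skin, 94.9 ± 19.3 CPM in lymph node) and Mkl2 (75.5 ± 37.1 CPM in skin, 68.3 ± 8.23 CPM in lymph node), lay within the spread between libraries.

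Of NFAT and calcineurin genes, the calcium route, edgeR called 0 of 7 (2 at an unadjusted p under 0.05, 3 by DESeq2 and 1 by limma-voom). Nfatc1 was at 127 ± 83.8 CPM in skin and 193 ± 20.6 CPM in lymph node Tregs, and Nfatc3 at 169 ± 69.7 CPM in skin and 94.3 ± 3.80 CPM in lymph node Tregs. Among CREB and MEF2 factors and the class IIa histone deacetylases that hold Nr4a genes in check, edgeR called 1 of 12. At an unadjusted p under 0.05 there were 3, and DESeq2 and limma-voom called 3 each (2 higher and 1 lower every time). The edgeR call was Crem, which encodes a modulator at cAMP response elements. Crem rose to 228 and 314 CPM in the skin libraries, against 87.7, 55.0 and 76.8 CPM in the lymph node libraries (log2 fold change 1.89, SE 0.33, edgeR adjusted p = 0.0460).

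Among partners and co-repressors of the families, edgeR called 0 of the 4 tested (2 at an unadjusted p under 0.05, and 2 each by DESeq2 and limma-voom, higher), while Rxrg and Egr4 had no count in any library. Nab1, a co-repressor of Egr proteins, was at 158 ± 23.8 CPM in skin and 46.6 ± 10.4 CPM in lymph node Tregs (edgeR adjusted p = 0.0523). Rxra, a retinoid X receptor that can pair with Nur77 and Nurr1, was at 116 ± 34.0 CPM in skin and 24.4 ± 7.92 CPM in lymph node Tregs (edgeR adjusted p = 0.0552). Macrophages also express Rxra, and the summed myeloid markers had a skin mean 92.3 times the lymph node mean; their part was not tested.

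Genes tied to Nr4a function in T cells included 3 of 8 tested that rose in skin, with 5 not past the threshold and a median log2 fold change of 0.81. At an unadjusted p under 0.05 there were 5, and DESeq2 called 5 and limma-voom 3, all higher. Ctla4, an inhibitory receptor, averaged 2390 ± 272 CPM in skin and 715 ± 94.3 CPM in lymph node Tregs, and Ikzf2, the Helios gene, 2455 ± 444 CPM in skin and 1326 ± 27.2 CPM in lymph node Tregs (edgeR adjusted p = 0.0271 and 0.0484). Havcr2 (Tim-3), an inhibitory receptor that myeloid cells share, averaged 198 ± 31.1 CPM in skin and 7.38 ± 4.70 CPM in lymph node Tregs (edgeR adjusted p = 0.0399). Of genes tied to Egr2 and Egr3, edgeR called 1 of 13 tested, with a median of -0.11. At an unadjusted p under 0.05 there were 2, and DESeq2 and limma-voom called 1 each. The edgeR call was Cdkn1a, a cell cycle inhibitor, at 43.8 and 122 CPM in skin, against 0.913, 1.02 and 1.09 CPM in lymph node Tregs (edgeR adjusted p = 0.0381). Among anergy genes of this list, 3 that Egr2 and Egr3 are known to induce were not called. Cblb had an edgeR adjusted p of 0.841, Dgkz of 0.828 and Dgka of 0.166. Dgka was at 292 and 778 CPM in skin, against 980, 1317 and 1215 CPM in lymph node Tregs. Nor were Rnf128, Itch and Ndrg1 called (edgeR adjusted p = 0.400, 0.501 and 0.486). Rnf128 was at 0 and 34.1 CPM in skin libraries 1 and 2 and Ndrg1 at 7.21 and 89.2 CPM, with log2 fold changes of 4.16 and 1.45.

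Other genes that respond to the antigen receptor were mixed. Of 20 tested, 5 rose, 1 fell and 14 did not pass (median log2 fold change 0.58). At an unadjusted p under 0.05, 6 were higher and 2 lower, and DESeq2 and limma-voom each called 5 higher and 2 lower. Icos, a co-stimulatory receptor, rose by 2.08, Tnfaip3 (A20), an inhibitor of NF-κB, by 3.01 and Tnfrsf9 (4-1BB) by 1.72 on the log2 scale (edgeR adjusted p = 0.0209, 0.0224 and 0.0265). Cd5, an inhibitory co-receptor whose level follows receptor signal strength, fell to 402 and 427 CPM in skin Tregs, against 986, 997 and 1121 CPM in lymph node Tregs (log2 fold change -1.32, SE 0.18, edgeR adjusted p = 0.0381). Cd69, an early activation marker, did not differ beyond the spread, at 663 ± 2.15 CPM in skin and 601 ± 73.3 CPM in lymph node Tregs (edgeR adjusted p = 0.697).

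Other immediate early genes, many of which are also known to respond to tissue digestion, included 6 of 26 tested that rose and 0 that fell. The other 20 did not pass, and the median log2 fold change was 2.02. At an unadjusted p under 0.05, 13 were higher. As higher, DESeq2 called 13 and limma-voom 11, and 0 were lower by any of these. Fos, the AP-1 subunit induced through the same serum response factor as Egr1, was at 501 and 628 CPM in skin, against 6.11, 12.9 and 23.1 CPM in lymph node Tregs (log2 fold change 5.33, SE 0.62, edgeR adjusted p = 0.0308). Dusp1, a phosphatase that switches off MAP kinases, averaged 255 ± 152 CPM in skin and 9.01 ± 1.24 CPM in lymph node Tregs, Klf6 848 ± 253 CPM in skin and 191 ± 37.2 CPM in lymph node Tregs, and Zfp36, which encodes an RNA decay factor, 717 ± 261 CPM in skin and 189 ± 15.3 CPM in lymph node Tregs (edgeR adjusted p = 0.0271, 0.0381 and 0.0411). Ier2 was at 15.5 and 22.6 CPM in skin, against 33.2, 27.5 and 27.1 CPM in lymph node Tregs, without passing (edgeR adjusted p = 0.623). The myeloid marker sums given above were higher in the same 2 skin libraries, and neither their part nor that of digestion in the Nr4a1 level was tested.

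**Figure D4:**
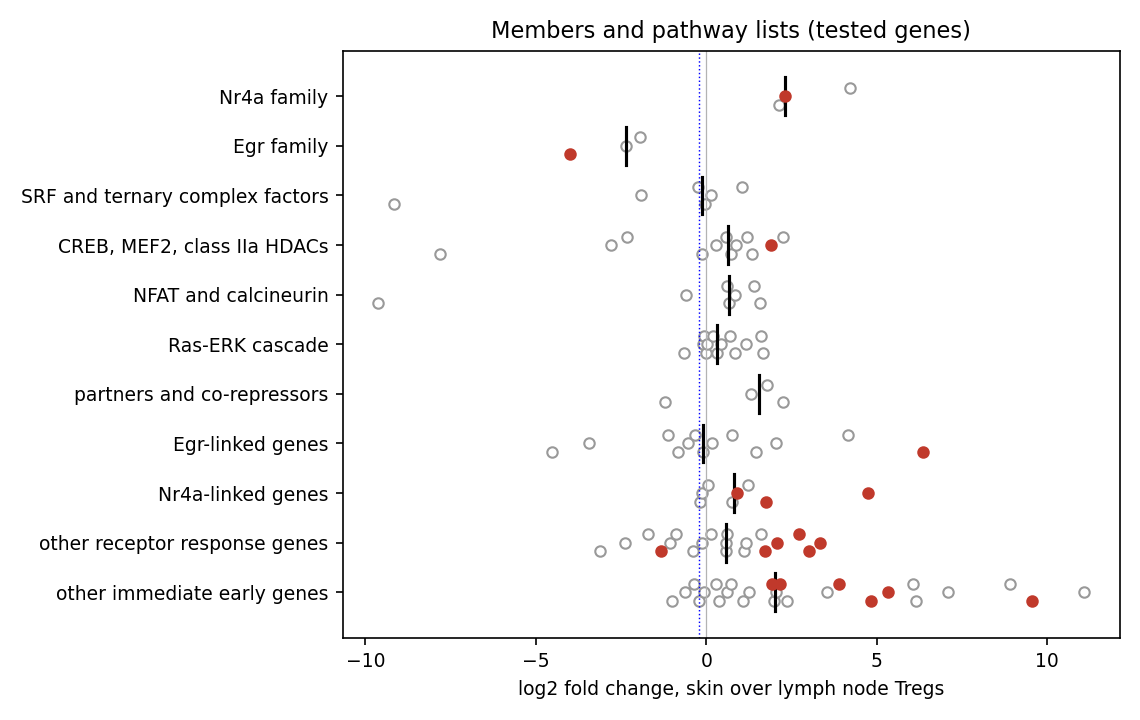
Log2 fold change, skin over lymph node Tregs, of every tested gene in the 2 families and the lists around them (filled where the edgeR adjusted p was under 0.05, black bars at list medians, dotted line at the median of all tested genes, -0.21). The 3 Nr4a genes lie to the right of 0 and the 3 Egr genes to the left; the outermost points are genes at or near 0 counts in 1 group, such as Elk1 and Rcan1, whose fitted fold changes depend on the prior count.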

How the data were processed

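The data are bulk RNA sequencing of Tregs in 5 libraries, grouped by tissue from the sample titles. Per the labels' protocols, sorted cells were frozen, RNA was purified on columns and cDNA was made with a SMARTer ultra-low-input kit. The authors' tools, per the submitters' processing notes, included HTSeq 0.6.1, TopHat2 2.0.12 with Bowtie2 2.1.0.0, CASAVA 1.8.2 and SAMtools 0.1.19.0, with build mm10; whether counting used strand is not given in the sources used here. Values deposited by the authors are whole-number counts per gene symbol without normalization; the header names sit 1 cell to the left of their values. Of all counts, 64.5 to 72.0% were reads without a unique alignment and 19.3 to 21.7% fell in genes. The 5 HTSeq summary rows were left out. No other GENCODE gene overlaps a member.

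Genes were kept by filterByExpr (minimum count 10), scaled by TMM and tested with edgeR 4.0.16 in R 4.3.3 (quasi-likelihood F test, Benjamini-Hochberg adjustment over 11437 genes, threshold 0.05). The SE is the log2 fold change divided by the square root of F. Alternatives changed the scaling, the filter, the tool (DESeq2 1.42.0, limma-voom 3.58.1), a replicate block and each library. The functions were run on simulated counts as a check of the code. A pass was required only of edgeR at a dispersion (spread beyond counting error) of 0.05. The common dispersion of these data was 0.843, so that check says nothing of the calls made here. The members and lists were chosen with earlier results of these data known. Named were all members, up to 4 called genes by adjusted p (or the 2 most abundant) of each list, the 3 nearest profiles of each member, and Foxp3, Il2ra and Cd3e. Cblb, Dgka, Dgkz, Rnf128, Itch, Ndrg1, Cd69, Ier2, Elk1, Rcan1, Myc, Irf4, Irf8, Cd200, Nfkbie, Trib1 and the markers singled out were named after their values were seen. Some members of the marker lists are not reported here by name.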

Additional observations from a re-analysis of the deposited data

How the results depend on the processing

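All 6 members kept the sign of their fold change in every alternative run (14 each, 13 for Nr4a3, which the minimum count of 50 removed). All but Nr4a3 had values that did not overlap between tissues. For them the alternatives could hardly reverse the sign, so a kept sign is no separate support. Nr4a1 ran from 2.13 to 2.47 and Egr1 from -4.14 to -3.84 on the log2 scale. Both were called under every scaling, filter and tool tried. Neither was called with the replicate block or with any 1 lymph node library left out. Nr4a2 ran from 3.28 to 4.77. The others rested on single skin libraries: Nr4a3 was 0.63 without skin library 2 and 2.85 without skin library 1, against 2.14 with both, and Egr2 was -0.96 and Egr3 -1.35 without skin library 2, against -1.95 and -2.34 with both. Without skin library 1, where no skin count is left, their fitted values of -13.30 and -11.71 are no bounds. By limma-voom they were -5.93 and -5.36, and with the replicate block -5.29 and -5.17; the cause was not tested. The number of all genes called, 881 at first, was 315 without a low-count filter, 1391 with a minimum count of 50, 3262 by DESeq2 and 2231 by limma-voom; the cause was not tested. Leaving out 1 library each gave 0 to 6065 genes and 0 to 6 members. The replicate numbers are shared by both tissues but nothing states that they pair animals, and libraries of the same number did not deviate together (r of -0.03 for number 1 and -0.02 for number 2, across genes, which are not independent). With the replicate number as a block, which leaves few degrees of freedom, 21 genes and 0 members were called (772 genes and 2 members at an unadjusted p under 0.05). Upper-quartile scaling moved the median log2 fold change of all genes to -0.37, against -0.21, without changing a member's call. Size factors by RLE brought Nr4a2 past the threshold (adjusted p = 0.0498; 4.98e-07 to 0.726 over its alternatives). CPM per unscaled gene totals changed the summed levels by less than 1 SD. In lymph node libraries Nr4a3 had 17 to 44 counts and Nr4a2 24 to 37, so their levels there are the least precise by counting.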

Other observations

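Skin libraries differed by over 10 times in 6 of the 20 other receptor response genes: Irf4, Irf8, Myc and Cd200 were lower in library 2, as Egr2 and Egr3 were, and Nfkbie and Trib1 lower in library 1. Of 13 genes tied to Egr2 and Egr3, 2 were lower in library 2 and 4 in library 1 by that measure. The share of all tested genes that differed this much was not computed, so the tally has no background. Loss in 1 skin library was common: of 6660 genes with a lymph node mean of at least 20 CPM, 304 were under 1 CPM in skin library 1 only. Another 787 were so in skin library 2 only. Myc, a growth regulator, was at 97.1 and 0.0999 CPM in skin libraries 1 and 2, against 191, 278 and 293 CPM in lymph node Tregs. Irf4, which drives effector Treg differentiation, was at 113 and 5.89 CPM in skin, against 108, 143 and 82.5 CPM in lymph node Tregs, and Cd200, an inhibitory ligand, at 71.6 and 7.09 CPM in skin, against 399.7, 307 and 318 CPM in lymph node Tregs. In the reverse pattern, Nfkbie, an NF-κB inhibitor, was at 0.562 and 64.0 CPM in skin libraries 1 and 2, against 56.5, 89.2 and 56.9 CPM in lymph node Tregs (adjusted p = 0.725). Of Myc, Irf4 and Cd200, none passed the edgeR test (adjusted p = 0.475, 0.669 and 0.104). These genes and the tally were picked after their values were seen.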
